A study of Homo sapiens with 2 samples.

Results

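The long arm of human chromosome 15 beyond FBN1 (the gene of the matrix protein fibrillin-1) is a stretch with many called nucleosome positions in a map of an epithelial cell line. Its bounds were chosen by that density: all deposited positions on chromosome 15 from base 48650002 to base 101000001 (hg38) were taken. The stretch held 97968 of the 2634343 distinct positions of the list, or 3.72%. Its high density is therefore a description and not a finding. Chromosome 14 from the same start to its end served for comparison and held 53295 positions.

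The cells were ARPE-19, an established line of human retinal pigment epithelium, in interphase and under normal culture with 20% serum. Lysed cells were digested with micrococcal nuclease for 5 min at 37 °C, and fragments of about 150 bp were recovered from a gel and sequenced. The labels name 2 samples, batches 1 and 2, of this 1 group, and no control. The only deposited list of positions does not name a batch, so no spread between samples could be measured and no test between samples was possible.

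A nucleosome is a stretch of DNA wrapped around a core of histone proteins, joined to the next by linker DNA. Micrococcal nuclease cuts linker DNA first, so the protected fragments mark where nucleosomes sat in many cells. In animal genomes the start sites of active genes usually lack nucleosomes just upstream and carry a well placed one just downstream, internal exons tend to hold one, and DNA rich in G and C takes up nucleosomes more readily than long runs of A or T. Intervals given below as 95% cover counting error only. They are Wilson intervals for shares, exact Poisson intervals for densities and exact conditional binomial intervals for ratios of densities. Neighbouring positions are not independent, so these intervals are too narrow.

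The sequences around the first 4 positions of an array of evenly spaced positions, 1 of the 3 with the most positions in the stretch, are printed first, because they show what a run of neighbouring nucleosomes looks like in the reference. The array lies in an intron of THSD4, a gene for a secreted matrix protein, and each sequence holds 151 bases of the plus strand with the 11 central bases around the called position in capitals. The sequences come from the hg38 reference and lie at chr15:71465324-71465474, chr15:71465489-71465639, chr15:71465664-71465814 and chr15:71465851-71466001.
THSD4 array position 1: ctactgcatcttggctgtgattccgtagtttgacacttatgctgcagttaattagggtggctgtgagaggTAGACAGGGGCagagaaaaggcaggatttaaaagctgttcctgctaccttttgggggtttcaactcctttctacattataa
THSD4 array position 2: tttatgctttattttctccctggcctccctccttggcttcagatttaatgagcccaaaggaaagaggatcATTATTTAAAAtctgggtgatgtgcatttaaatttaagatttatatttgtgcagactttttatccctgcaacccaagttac
THSD4 array position 3: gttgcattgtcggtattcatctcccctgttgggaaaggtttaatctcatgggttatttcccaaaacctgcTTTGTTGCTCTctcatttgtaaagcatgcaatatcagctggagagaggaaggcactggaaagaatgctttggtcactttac
THSD4 array position 4: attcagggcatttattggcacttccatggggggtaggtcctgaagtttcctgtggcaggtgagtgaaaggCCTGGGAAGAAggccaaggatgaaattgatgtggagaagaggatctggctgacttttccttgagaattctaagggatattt
The distances from each of these positions to the next were 165, 175, 187 and 165 bp. Their GC contents were 44.4, 36.4, 43.0 and 47.0%.

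Of the most covered gene bodies, those of CCDC33, HCN4 and CIB2 had an internal coding exon with a position close to its middle. These exons were picked for that placement, which is described for exons further on. A position within 50 bp of the middle was found in 26.7% of the 1097 exons counted there. Each is printed 5′ to 3′ on the gene's own strand with the exon in capitals and 30 intron bases on either side in lower case. They lie at chr15:74295724-74295978 on the plus strand for exon 11 of 19 of CCDC33, and on the minus strand at chr15:73332101-73332322 for exon 3 of 8 of HCN4 and chr15:78109205-78109412 for exon 4 of 6 of CIB2.
CCDC33 exon 11: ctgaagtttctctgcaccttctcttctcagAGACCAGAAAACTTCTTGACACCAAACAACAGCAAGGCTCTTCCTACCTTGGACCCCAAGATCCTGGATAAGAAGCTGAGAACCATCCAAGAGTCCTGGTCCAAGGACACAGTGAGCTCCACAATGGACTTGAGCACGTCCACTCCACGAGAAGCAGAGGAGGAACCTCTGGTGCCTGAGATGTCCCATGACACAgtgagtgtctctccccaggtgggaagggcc
HCN4 exon 3: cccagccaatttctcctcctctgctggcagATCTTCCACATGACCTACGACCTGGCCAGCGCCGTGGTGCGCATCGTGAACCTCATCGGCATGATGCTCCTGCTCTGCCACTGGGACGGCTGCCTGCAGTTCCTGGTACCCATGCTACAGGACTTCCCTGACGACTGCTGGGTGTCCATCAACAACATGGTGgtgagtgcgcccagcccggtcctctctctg
CIB2 exon 4: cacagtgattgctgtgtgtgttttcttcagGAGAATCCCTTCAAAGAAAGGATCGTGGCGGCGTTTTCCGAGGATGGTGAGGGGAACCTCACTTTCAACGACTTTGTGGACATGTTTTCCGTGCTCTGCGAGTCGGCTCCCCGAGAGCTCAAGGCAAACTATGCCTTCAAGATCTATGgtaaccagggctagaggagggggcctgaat
The exons are 195, 162 and 148 bp long, and the nearest positions were 7, 4 and 18 bp from their middles.

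The stretch had 1.87 positions per kb of determined sequence (95% interval 1.86 to 1.88), against 0.915 per kb (0.907 to 0.923) on chromosome 14 and 0.887 per kb over chromosomes 1-22 and X without it. The GC contents of both stretches were close, at 42.5 and 42.3%. A GC expectation was formed from the density over all chromosomes of DNA with the same GC content, and the stretch held 1.81 times the expected number, against 0.916 times on chromosome 14. All of these values use the density that chose the stretch and are given without a test.

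The lower border was abrupt. The first 10 kb inside held 17 positions and the last 10 kb outside held 3. Over 100 kb the counts were 149 and 6, and over 1000 kb they were 1344 and 88. The last position before the border was at 48649921 and the first inside was at 48650763. FBN1 itself (48408313 to 48645721, minus strand, start site 48645709) ends 4281 bp before the border, and its body of 237 kb held 6 positions. The whole of chromosome 15 before the stretch had 4529 positions, or 0.144 per kb of determined sequence. The upper end was a coordinate and not a border in the data. The counts there were 24 inside and 25 outside over 10 kb, the last position inside was at 100998897 and the first after it at 101000597, and the remaining 0.981 Mb of the chromosome had 2.03 positions per kb. The list alone does not show whether chromosome 15 before the border was called as fully as the rest, and the border counts and the 6 positions in FBN1 carry this limit. What separates the arm before FBN1 from the stretch was not tested.

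**Figure D1:**
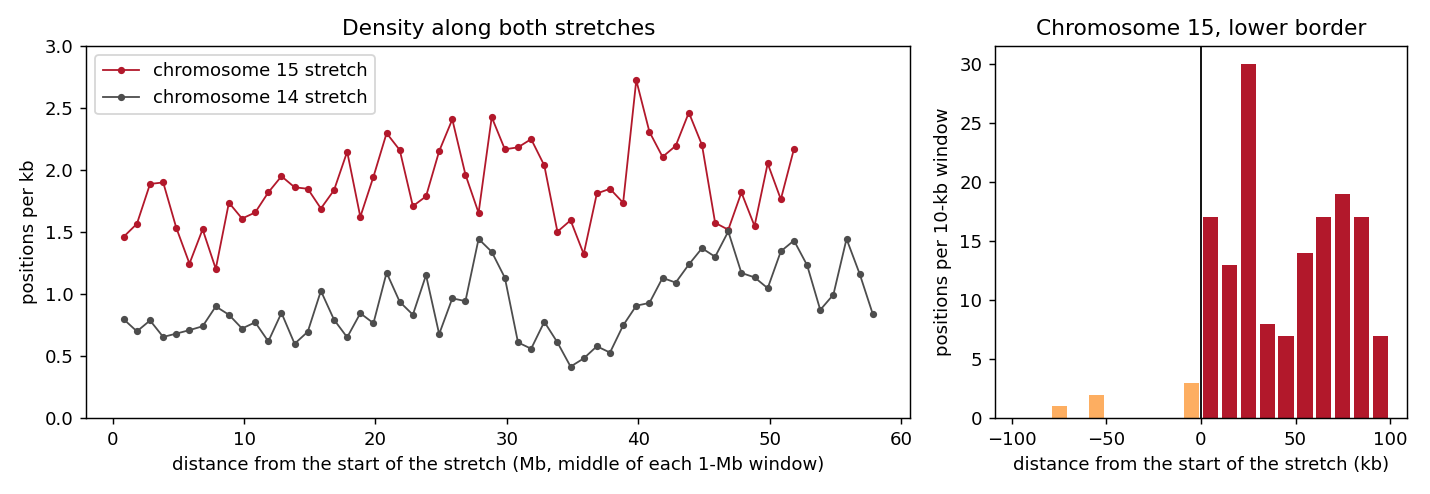
Left, positions per kb (vertical axis) in whole 1-Mb windows against the distance from the start of each stretch in Mb, for chromosome 15 (red) and chromosome 14 (grey). Right, positions per 10-kb window on chromosome 15 against the distance from the lower border in kb, outside in orange and inside in red. The windows of chromosome 15 run from 1.204 to 2.72 per kb and the first 100 kb inside hold 149 positions against 6 in the last 100 kb outside.

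Along the stretch the density varied with base composition. The 52 whole 1-Mb windows had 1.88 ± 0.330 positions per kb (mean ± SD over windows), from 1.204 to 2.72. Of them, 47 lay above the densest of the 58 windows of chromosome 14, which ran from 0.416 to 1.51. The stretch was chosen by this density, so the comparison with chromosome 14 is a description only. Across windows of the stretch the density followed GC content (Pearson's r 0.709, Spearman's rho 0.678, n = 52 windows of the same list, a description). The corresponding values on chromosome 14 were 0.805 and 0.866 (n = 58).

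The densest megabase, from 88 to 89 Mb, held 2724 positions. Its 9 protein-coding genes include ACAN, the gene of the cartilage proteoglycan aggrecan, with HAPLN3, MFGE8, ISG20, AEN, DET1, MRPS11, MRPL46 and ENSG00000173867. The next were 92 to 93 Mb (2463 positions) with ST8SIA2 and FAM174B, and 77 to 78 Mb (2426), where LINGO1 lies. The sparsest was 56 to 57 Mb with 1204 positions, which holds RFX7, TEX9, MNS1, ZNF280D and ENSG00000285253. It was followed by 54 to 55 Mb (1246), which contains no whole protein-coding gene. The window from 84 to 85 Mb had 1257 positions, or 1.32 per kb of determined sequence, and holds GOLGA6L4, ZSCAN2, WDR73, NMB, SEC11A, ZNF592, ALPK3 and SLC28A1.

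These extremes differed less once base composition was taken in. Relative to the GC expectation the 3 densest windows stood at 2.04, 2.09 and 2.00, and the 54 to 55 Mb window, with a GC content of only 36.7%, stood at 2.07. The 56 to 57 Mb window stood at 1.81. The 84 to 85 Mb window stood at 1.14, which was the lowest of the 52 windows.

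That window shares its place with the largest gaps. The 8 largest distances between neighbouring positions in the stretch ran from 30.9 to 117 kb, and all of them lay either between 82289478 and 82545802 or between 84199019 and 84522723. The largest, 117 kb, spans 50000 undetermined bases of the reference, and the second, 109 kb, contains GOLGA6L9. Others contain GOLGA6L4 (47.6 kb) and GOLGA6L10 (37.0 kb). The golgin genes GOLGA6 and GOLGA6L form a family with near-identical copies on this arm. How the authors placed reads that match several copies is not given in the sources used here, so low counts there are uncertain, and the part of such reads in the gaps was not tested. Over the whole stretch, these regions included, 44 of 5231 windows of 10 kb (0.841%, 95% interval 0.627 to 1.13%) had no position, against 46 of 5824 (0.790%, 0.593 to 1.05%) on chromosome 14. The median window held 17 positions and the fullest 59.

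Among distances above 100 bp, neighbouring positions were most often about 1 nucleosome apart. The median distance to the next position was 315 bp (quartiles 163 and 666), and the most frequent distance above 100 bp was 181 bp. On chromosome 14 the median was 578 bp and the most frequent distance 184 bp. Distances of 150 to 220 bp made up 18.8% of neighbours (95% interval 18.6 to 19.1%) in the stretch, against 14.3% (13.96 to 14.55%). Distances over 1000 bp made up 14.4% against 33.8%. A higher density by itself shortens such distances, and its part in these shares was not tested.

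The repeat length, which is the mean distance from one nucleosome to the next in ordered chromatin, was read from the distances between all pairs of positions. The pair counts had maxima at 186, 379, 555, 742, 933, 1120 and 1310 bp, and a straight line through these 7 maxima gave 186.9 bp. On chromosome 14 the line gave 187.5 bp. In 10 whole 5-Mb blocks of the stretch the repeat length was 186.6 ± 3.13 bp (SD over blocks), from 181.3 to 192.6 bp. The 11 blocks of chromosome 14 gave 187.6 ± 3.50 bp. The difference between the chromosomes was smaller than the spread over blocks.

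The rise and fall of the pair counts was shallower in the stretch. Pairs 176 to 196 bp apart numbered 10007 and pairs 280 to 300 bp apart numbered 3220, a ratio of 3.11 (95% interval 2.99 to 3.23). On chromosome 14 the ratio was 4.84 (4.48 to 5.23). Over 5-Mb blocks it ran from 2.86 to 3.26 in the stretch and from 3.56 to 6.09 on chromosome 14, so the ranges did not overlap. The range of distances was chosen after the pair counts had been seen. The stretch itself was chosen by its density, and the part of density in this ratio was not tested.

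Many positions also lay closer together than a nucleosome is wide. In the stretch 12345 neighbours were under 60 bp apart, 12.6% of all (95% interval 12.4 to 12.8%), with a most frequent short distance of 34 bp. On chromosome 14 the share was 8.13% (7.90 to 8.37%) and the short distance 32 bp. The share was 11.2 to 13.8% over the blocks of the stretch and 6.26 to 9.29% over those of chromosome 14. The densest block of chromosome 14, with 1.24 positions per kb, had 9.29%, and the least dense block of the stretch, with 1.55 per kb, had 11.2%. Neighbours under 150 bp made up 22.5% in the stretch and 12.5% on chromosome 14. Such pairs cannot be occupied in the same DNA molecule by a pair of whole nucleosomes. More than 7 positions within 1 kb occurred in 203 of 52301 windows (0.388%, 0.338 to 0.445%), against 5 of 58234 (0.00859%, 0.00367 to 0.0201%) on chromosome 14.

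**Figure D2:**
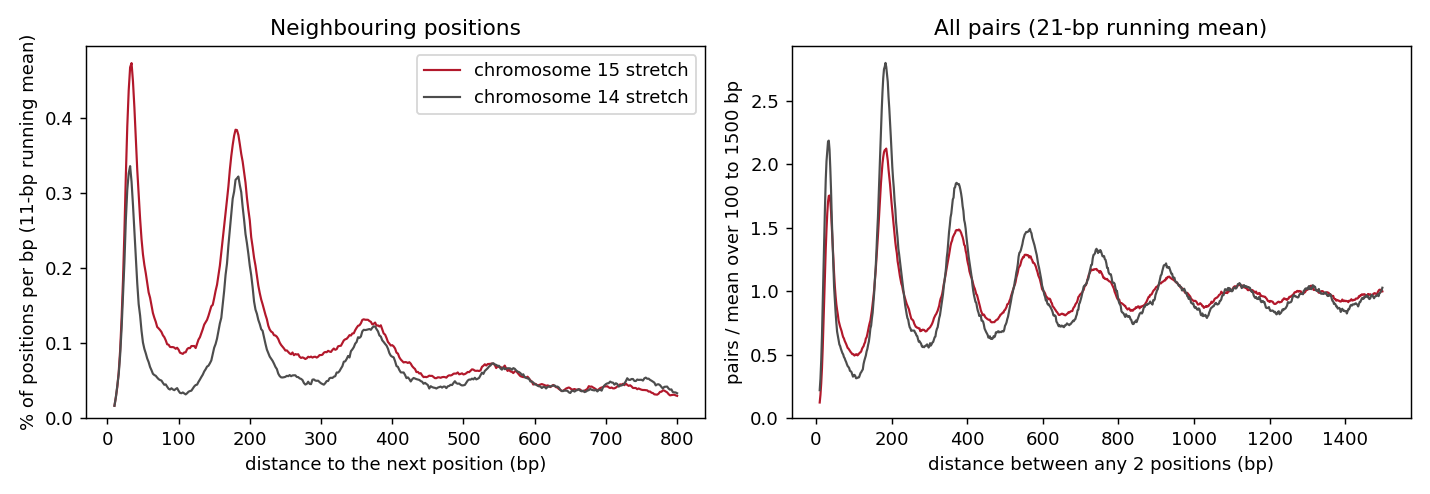
Left, the share of positions (percent per bp, running mean of 11 bp) by distance to the next position in bp. Right, the number of pairs of positions by distance in bp, divided by its mean over 100 to 1500 bp (running mean of 21 bp). Chromosome 15 is red and chromosome 14 grey. Both show a short maximum near 34 or 32 bp and a series of maxima from about 186 bp on, and the series is shallower for chromosome 15.

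Regular arrays, defined as at least 5 positions in a row with every distance from 150 to 220 bp, were few. The stretch had 229 arrays with 1259 positions, 1.29% of its positions (95% interval 1.22 to 1.36%), or 4.37 arrays per Mb. Chromosome 14 had 71 arrays, 0.739% of its positions (0.670 to 0.816%), or 1.22 per Mb. Over 5-Mb blocks the share ran from 0.283 to 2.30% in the stretch and from 0 to 2.11% on chromosome 14. These ranges overlapped over most of their length. The part of density, by which the stretch was chosen, in the array counts was not tested. Of the 229 arrays 156 had 5 positions, 50 had 6, 12 had 7 and 11 had 8 or more. The mean distance within arrays was 184.5 ± 16.8 bp (SD, n = 1030 distances). The definition confines these distances to 150 to 220 bp, so this mean and SD are largely set by it.

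The 3 arrays with the most positions had 10 each. The THSD4 array printed above ran from 71465399 to 71467016 with a mean distance of 179.7 bp. The second, from 63945596 to 63947220, lay in an intron of DAPK2, a gene for a calcium-dependent protein kinase linked to cell death. The third, from 99491316 to 99492971, lay between genes. Introns of protein-coding genes held 46.6% of array positions, against 49.04% of all positions of the stretch, and DNA between genes held 32.2% against 27.9%. Start sites (within 1000 bp) held 14 of the 1259, or 1.11% against 0.946%, and coding exons 12, or 0.953% against 1.42%. LINGO1, which encodes a nerve cell receptor component that restrains axon growth, overlapped 10 arrays, CCDC33 9, the neurotrophin receptor gene NTRK3 7, the nicotinic receptor gene CHRNB4 6 and MEGF11 5. Array positions had a GC content of 52.2%, against 48.8% for all positions of the stretch.

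Base composition at the positions differed from that between them. Windows of 150 bp centred on positions had 48.8 ± 7.42% GC (SD, n = 97968), and the 150 bp midway between neighbours 300 to 1000 bp apart had 41.9 ± 9.36% (n = 36245), a difference of 6.87 percentage points. On chromosome 14 the values were 49.9 and 43.95%. Within 20 bp of the position 16.04% of the base steps were AA, TT or TA, and 85 to 105 bp away 25.04% were. Runs of 8 or more A or of 8 or more T occurred in 4.54% of the windows at positions (95% interval 4.41 to 4.67%) and in 10.6% of the windows between (10.2 to 10.9%). Chromosome 14 had 3.93 and 8.81%.

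Annotated features differed in how densely they were called. Coding exons had 2.15 positions per kb, DNA between genes 2.10, noncoding genes 1.94, introns of protein-coding genes 1.76 and UTR exons 1.69. DNA within 1000 bp of a start site had the lowest value, 1.33 per kb. Relative to the GC expectation the order changed: DNA between genes stood at 1.93, noncoding genes at 1.90, introns at 1.74, coding exons at 1.72, UTR exons at 1.68 and DNA near start sites at 1.13. CpG islands are stretches rich in CG steps that cover the start sites of many genes. In the 361 islands of the stretch the interior had 0.753 per kb, the border (200 bp on either side of the edge) 1.16, the shore up to 2000 bp outside 1.76 and the rest 1.89. The same order except for the shore held in the 392 islands of chromosome 14, at 0.340, 0.530, 0.961 and 0.919 per kb. Set against the GC expectation, the interior, border, shore and rest of the stretch stood at 0.944, 0.892, 1.39 and 1.83. On chromosome 14 they stood at 0.456, 0.410, 0.777 and 0.926. On that scale the interior was not below the border on either chromosome. Both stayed below the shore and the rest. These values are given without intervals.

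Start sites of protein-coding genes were depleted of positions just upstream and had a maximum just downstream. Over 377 start sites, from 200 bp before to 50 bp after, there were 0.753 positions per kb, against 1.63 per kb at 1000 to 2000 bp on either side, a ratio of 0.463 (95% interval 0.359 to 0.588). With the GC expectation the ratio was 0.592 (0.459 to 0.752). The lowest 25-bp bin was 100 to 75 bp upstream, with 1 position over all start sites. The highest was 125 to 150 bp downstream, with 39 positions or 4.14 per kb (2.94 to 5.66), the place of the nucleosome usually called +1. A smaller maximum followed at 325 to 350 bp, with 2.02 per kb (1.21 to 3.15), and an upstream one lay at 225 to 200 bp before the start, with 3.18 per kb (2.15 to 4.54).

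The depletion was deeper in CpG islands. At the 261 island start sites the ratio of the window to its flanks was 0.321 (0.219 to 0.454), and at the 116 others 0.751 (0.523 to 1.05), an interval that includes 1. With the GC expectation these were 0.524 (0.358 to 0.741) and 0.637 (0.444 to 0.890), and their intervals overlap. On chromosome 14 the ratios were 0.370 (0.217 to 0.593) in islands and 1.43 (0.998 to 2.02) outside. Over all start sites chromosome 14 gave 0.758 (0.569 to 0.994), and its interval overlaps that of the stretch only narrowly.

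Counted by gene, 85 of the 377 start sites (22.5%, 95% interval 18.6 to 27.0%) had a position 100 to 174 bp downstream, against a background of 14.8% of all protein-coding start sites on chromosomes 1-22 and X and 14.8% (11.6 to 18.6%) of the 399 on chromosome 14. The share was 19.2% (50 of 261) in islands and 30.2% (35 of 116) outside. The high density for which the stretch was chosen raises these shares too. No position lay from -200 to +50 bp at 315 of 377 start sites (83.6%, 79.5 to 87.0%), near the background of 85.9%. On chromosome 14 it was 87.0%. In islands this share was 87.7% (83.2 to 91.2%) in the stretch and 93.3% (89.7 to 95.7%) on chromosome 14. Outside islands it was 74.1% (65.5 to 81.2%) and 73.6% (65.4 to 80.5%). The part of density in these shares was not tested.

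Most start sites had few positions nearby. Within 1000 bp on either side the median was 2 (quartiles 1 and 4) and 44 start sites had none. CCDC33 had the most, 12. ACSBG1, an acyl-CoA synthetase, and PLIN1, the lipid droplet protein perilipin, had 9 each. CYP11A1, the enzyme that opens steroid synthesis, FES, a cytoplasmic tyrosine kinase, and GCNT3, a mucin glycosyltransferase, had 8, as did ODF3L1. All 7 of these start sites lie outside CpG islands, as do 116 of all 377. Island interiors had fewer positions per kb than other DNA, and its part in this was not tested.

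**Figure D3:**
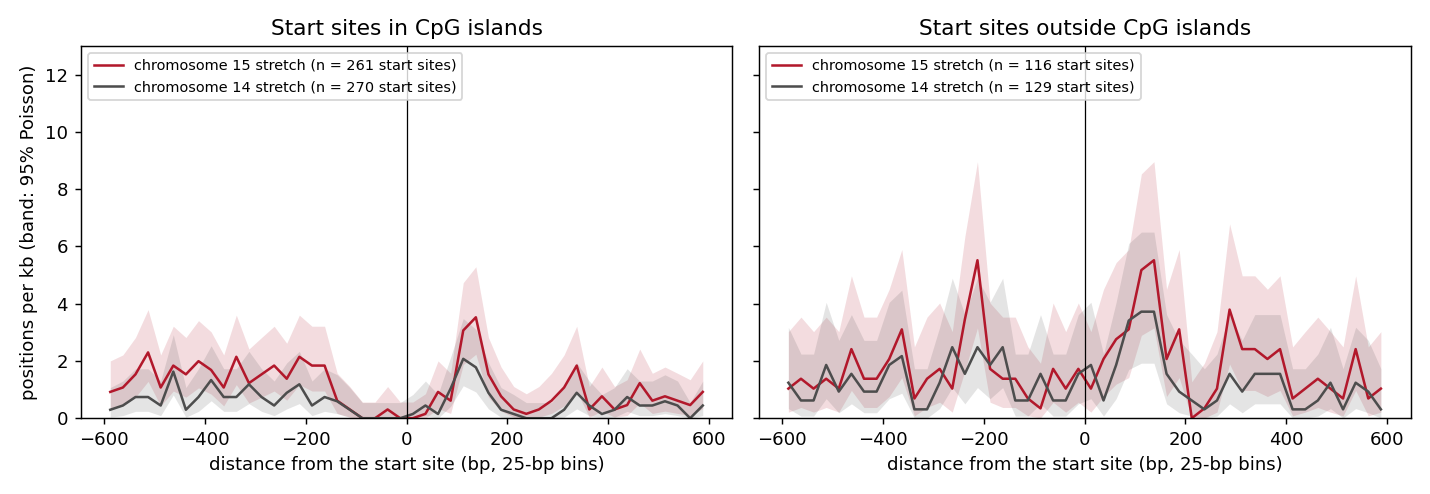
Positions per kb (vertical axis, 25-bp bins) by distance from the start site in bp, for start sites in CpG islands (left) and outside (right). Chromosome 15 is red, chromosome 14 grey, and bands are 95% Poisson intervals. The island start sites of chromosome 15 have 0.506 positions per kb from 200 bp upstream to 50 bp downstream and a maximum of 3.52 per kb 125 to 150 bp downstream.

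Internal coding exons carried more positions than the introns beside them. Over 1097 exons of 100 to 300 bp flanked by introns of 1000 bp or more, there were 2.49 positions per kb in the exons and 1.72 in the introns 300 to 500 bp away, a ratio of 1.45 (95% interval 1.28 to 1.63). With the GC expectation the ratio was 1.23 (1.09 to 1.39). Chromosome 14 gave 1.54 (1.29 to 1.83), an interval that overlaps. The positions gathered at the exon middle: the bin from 25 bp before it up to the middle had 104 positions or 3.79 per kb (3.10 to 4.59), and the bin 125 to 100 bp before it had 29 or 1.06 per kb (0.708 to 1.52). Counted from the first exon base the maximum was at 50 to 75 bp, with 3.83 per kb. The minimum was in the intron 50 to 25 bp before that base, with 0.802 per kb.

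The intervals of the 3 classes of exon length overlapped. The ratio was 1.51 (1.21 to 1.88) for exons of 100 to 129 bp, 1.58 (1.28 to 1.94) for 130 to 169 bp and 1.35 (1.09 to 1.66) for 170 to 300 bp. With the GC expectation the longest class was at 1.04 (0.846 to 1.29). A position within 50 bp of the middle was found in 293 of 1097 exons (26.7%, 24.2 to 29.4%), against a background of 15.4% genome-wide and 12.8% on chromosome 14. The stretch was chosen for a high density, which raises this share too.

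The 3′ ends of genes showed a narrow minimum. Over 376 ends of protein-coding genes the 25 bp before the end held 3 positions or 0.319 per kb (0.0658 to 0.933). The bins 150 to 125 bp before and 100 to 125 bp after held 28 and 26 positions, or 2.98 and 2.77 per kb. Within 100 bp of the end there were 1.35 positions per kb, against 1.93 in the flanks, a ratio of 0.698 (0.565 to 0.854). With the GC expectation it was 0.990 (0.802 to 1.21), since these windows had only 39.3% GC. Over 100 bp in all, 50 on either side, the ratio to the flanks was 0.381 on the uncorrected scale. No position lay within 100 bp of 283 of 376 ends (75.3%, 70.7 to 79.4%), against a background of 87% and 86.0% on chromosome 14. The high density for which the stretch was chosen lowers this share.

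The polyadenylation signal AATAAA, searched on the gene's strand in the last 40 bp, occurred at 257 of the 376 ends (68.4%, 63.5 to 72.8%) and at 64.4% of those on chromosome 14. Ends with it had a ratio of 0.721 (0.563 to 0.912) and the 119 without it 0.641 (0.418 to 0.946), so the intervals overlapped. The lowest bin was the last 25 bp in both sets, with 2 positions and 1.

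**Figure D4:**
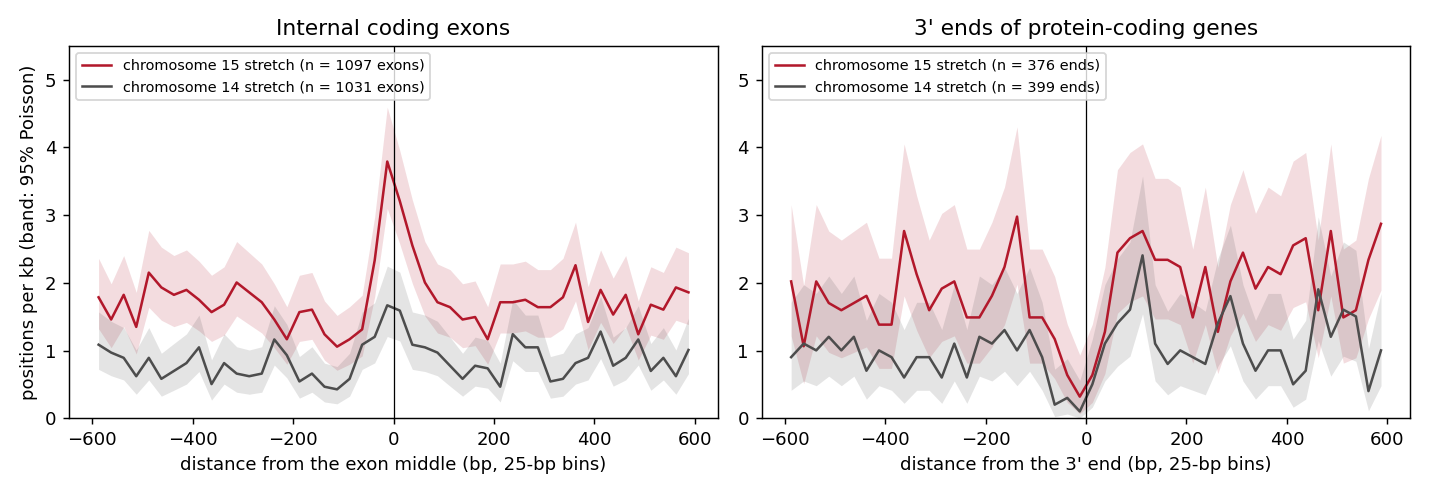
Positions per kb (vertical axis, 25-bp bins) by distance in bp from the middle of internal coding exons (left) and from the 3′ end of protein-coding genes (right). Chromosome 15 is red, chromosome 14 grey, and bands are 95% Poisson intervals. On chromosome 15 the exon maximum is 3.79 per kb and the minimum at the 3′ end 0.319 per kb.

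Gene bodies differed widely. The stretch holds 376 whole protein-coding genes, of which 334 are at least 10 kb long. Among these the median was 1.72 positions per kb (quartiles 1.23 and 2.31, range 0.0788 to 4.29), and 32 had under 1 per kb. Of the 345 such genes on chromosome 14 the median was 0.790, and 235 had under 1 per kb. This comparison uses the density that chose the stretch and is a description only. Across the 334 genes the density followed GC content with a Spearman's rho of 0.632, as a description of genes in the same list.

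The 8 most covered bodies had 3.42 to 4.29 positions per kb. LINGO1 (207.9 kb, minus strand, 77613027 to 77820900) had 891 positions or 4.29 per kb (95% interval 4.01 to 4.58). CCDC33, a coiled-coil protein, had 4.06 per kb (3.72 to 4.42), and HCN4, the pacemaker channel of the heart, had 3.91 (3.38 to 4.50). FES had 3.89 (2.86 to 5.17), and RGMA, an axon guidance protein, had 3.73 (3.23 to 4.28). CIB2, a calcium-binding protein needed for hearing, had 3.68 (2.99 to 4.48), ACAN 3.63 (3.20 to 4.10) and PSTPIP1, a cytoskeletal adaptor of blood cells, 3.42 (2.90 to 4.01). The order within these 8 is not resolved between neighbours, whose intervals overlap. All 8 had over 50% GC, and they stood at 2.13 to 2.63 times the GC expectation. Their median distance between neighbouring positions was 179 to 199.5 bp. The genes were ranked by density, which by itself shortens this distance, so the value does not show regular spacing.

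The 8 least covered bodies had 0.0788 to 0.762 positions per kb, and 3 of them were golgin genes. GOLGA6D had 1 position in 12.7 kb, and GOLGA6B and GOLGA6C had 10 each, or 0.671 and 0.661 per kb. These golgin counts carry the limit on near-identical copies given above. FEM1B, a substrate adaptor of a ubiquitin ligase, had 0.497 per kb (0.227 to 0.943) and TPM1, the actin-binding tropomyosin 1, had 0.546 (0.312 to 0.887). KIF23, a motor protein of cell division, had 0.702 (0.450 to 1.04). CIAO2A, which serves iron-sulfur protein assembly, had 0.704 (0.394 to 1.16), and PKM, the glycolytic enzyme pyruvate kinase, had 0.762 (0.493 to 1.13). PKM has 48.4% GC and stood at 0.5501 times the GC expectation, and TPM1 with 45.1% GC stood at 0.490.

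Ranked by the GC expectation instead, 31 of the 334 gene bodies were below 1 and 64 above 2, against 257 and 3 of the 345 on chromosome 14. These counts also carry the density that chose the stretch. The highest were FGF7, a growth factor for epithelia, at 2.74, LINGO1 at 2.63, the liver and pancreas factor ONECUT1 at 2.52, FES at 2.50, RGMA at 2.47, the synaptic vesicle gene SV2B at 2.45, the secretory granule gene SCG3 at 2.43 and NRG4 at 2.43. FGF7 has only 33.8% GC and 1.11 positions per kb. The lowest apart from the golgins GOLGA6B, GOLGA6C and GOLGA6D were TPM1, PKM, the p53 target AEN at 0.600, SEMA7A at 0.633 and LOXL1, a lysyl oxidase that cross-links elastin, at 0.683. Of the 16 genes with the most and fewest positions per kb, 8 were also among the 16 of this ranking.

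Genes without any position included GOLGA6L4, GOLGA6L9 and GOLGA6L10, C2CD4B and ENSG00000288625. These 5 are under 10 kb, and the golgins lie in the regions of the largest gaps. For C2CD4B, of 1.75 kb, a count of 0 allows up to 2.11 positions per kb.

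**Figure D5:**
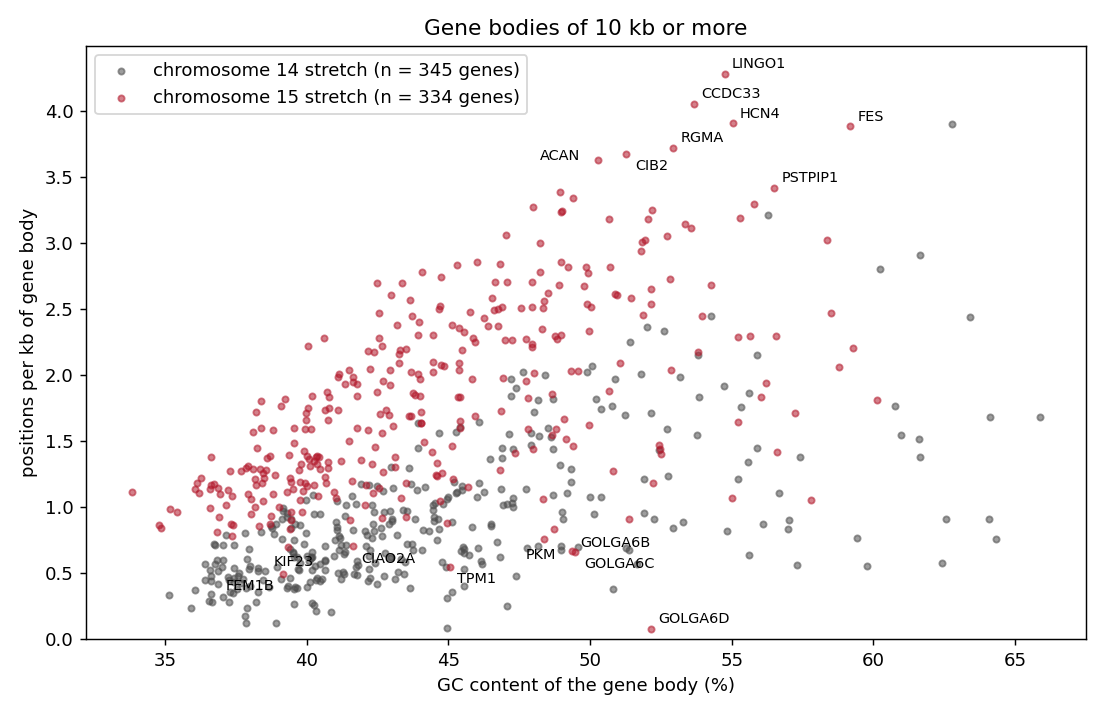
Positions per kb of gene body (vertical axis) against its GC content in percent, for protein-coding genes of 10 kb or more on the chromosome 15 stretch (red, n = 334) and on chromosome 14 (grey, n = 345). The 8 most and 8 least covered genes of the stretch are named. LINGO1 is highest at 4.29 per kb and GOLGA6D lowest at 0.0788 per kb.

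Gene groups listed by role, some of them loosely, were read against all 376 genes of the stretch, whose median was 1.70 positions per kb (1.61 times the GC expectation). The lists were chosen with earlier results of these data known, so their counts are descriptions. In the list named retinoid and visual cycle 5 of 7 genes lay above that median, with a list median of 1.99. The 5 include NR2E3 (2.03 per kb) and RORA (1.99 per kb), which fit the list only loosely. RLBP1, which carries retinal in pigment epithelium, had 3.24 per kb (2.29 to 4.44) and ALDH1A3, a retinaldehyde dehydrogenase, had 1.59 (1.22 to 2.04). The list was at 1.49 times the GC expectation, below the value for all genes.

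In SMAD signalling and matrix 7 of 12 genes were above the median of all, with a list median of 1.83. Relative to the GC expectation the list median was 1.46, below the value for all genes. ACAN was highest at 3.63 and SMAD3, which carries the TGF-beta signal to the nucleus, lowest at 1.07 (0.896 to 1.26). LOXL1 stood close to it with 1.07 per kb. In the list of receptor tyrosine kinases and MAP kinases 2 of 7 were above, with a median of 1.42. FES was highest, and MAP2K1, the kinase that activates ERK, was lowest at 1.05 (0.862 to 1.26).

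Of the genes of nerve and heart 7 of 9 were above the median of all, with a list median of 2.70. LINGO1 was highest and SEMA7A, a membrane-bound semaphorin, lowest at 1.05 (0.688 to 1.54). The nicotinic receptor cluster had a median of 2.27, with CHRNB4 at 2.59 (2.29 to 2.91) and CHRNA5 at 1.38 (0.989 to 1.87), 2 of 3 above. All 4 cytochrome P450 genes were above, with a median of 2.65. CYP1A1, the enzyme induced by aromatic pollutants, had 33 positions in 5.995 kb or 5.505 per kb (3.79 to 7.73), and CYP1A2, a drug-metabolising enzyme of the liver, had 2.06 (1.18 to 3.35).

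Both lists of basic cell functions had medians below that of all genes. Of 9 genes listed under ribosome, proteasome and respiratory chain 1 was above the median of all, and the list median was 1.11. IDH3A, a subunit of the mitochondrial isocitrate dehydrogenase and not of the respiratory chain itself, had the most, 2.10 (1.68 to 2.60). Of 11 genes listed under chromosome segregation, replication and repair 3 were above, with a median of 1.31. PIF1, a DNA helicase, had 2.29 (1.45 to 3.44) and KIF23 the fewest. Of the 10 transcription factors 6 were above, with a median of 1.78, from MEF2A, a muscle and nerve factor, at 0.814 (0.677 to 0.971) to ONECUT1 at 2.86 (2.33 to 3.47). Melanosome transport had a median of 1.59, with MYO5C, a myosin motor, at 2.33 and RAB27A, which ties melanosomes to their motor, at 1.197, and 1 of 3 above. Its median relative to the GC expectation was 1.83, above the value for all genes. None of the 7 golgin genes was above, with a list median of 0.0788 and GOLGA6A highest at 1.18 (0.661 to 1.95).

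The lists also differed in how often a position lay 100 to 174 bp downstream of the start site, which 85 of 377 start sites of the stretch had. In segregation, replication and repair 6 of 11 start sites had one, and none of the 11 had a position from -200 to +50 bp. Those with one were PCLAF at 102 bp, TICRR at 120 bp, POLG at 123 bp, FANCI at 159 bp, PIF1 at 166 bp and MNS1 at 172 bp. MNS1 is in the list, but its known role lies outside these functions. In the ribosome, proteasome and respiratory chain list it was 4 of 9: PSMA4 at 136 bp, RPL4 at 151 bp, IDH3A at 160 bp and COX5A at 174 bp. None of the 12 start sites of SMAD signalling and matrix, none of the 9 of nerve and heart, none of the 7 of retinoid handling and none of the 7 of receptor and MAP kinases had one. Neither did the 7 golgin and 3 nicotinic receptor start sites. The other lists had 2 of 10 (transcription factors), 1 of 4 (cytochrome P450) and 1 of 3 (melanosome transport). Whether genes of these lists were expressed was not measured here, and the differences between lists were not tested.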

How the data were processed

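The submitters' processing notes name Bowtie2 and the builds hg38 and GRCh38. The caller, its threshold, the fragment filter and the treatment of the 2 batches are not given in the sources used here, and neither is the number of reads. The name of the deposited list carries the numbers 120 and 180 and a 2, whose meaning is not stated there. The deposited list holds 1-bp positions with no height or score. The members and lists were chosen with earlier results of these data known.

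Repeated rows were dropped and positions counted per kb of determined bases. GENCODE 44 gave 1 transcript per protein-coding gene (MANE Select, otherwise canonical). CpG islands were found with a running score (+17 for a CpG, -1 otherwise), longer than 500 bp, with a GC content of 55% or more and a CpG ratio (observed to expected) above 0.65. The GC expectation used the genome-wide density in 2% classes of the 200 bp around a base. Distances were smoothed over 11 bp and pair counts over 21 bp. Calculations used Python 3.11.15, numpy 2.4.6, scipy 1.17.1 and matplotlib 3.10.9, and the spacing and density measures were tested on simulated positions. The text names the 8 most and 8 least covered gene bodies of 10 kb or more, the extremes of each list and members without a position, the 6 start sites with most positions (7 with a tie), the 3 longest arrays, and the 3 densest and 3 sparsest megabases. The ranking by GC expectation, the fixed pair distances and the count per 1 kb were added after the data were seen. Some items that these rules select are not reported here.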

Additional observations from a re-analysis of the deposited data

How the results depend on the processing

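The 10 results were recomputed under 35 alternatives in all. None reversed, 15 stayed within the counting interval, the spread over blocks or, for the count of gene bodies, 1.5 times the reported value, and 20 moved. Merging positions closer than 100 bp changed the log2 density ratio of chromosome 15 to chromosome 14 from 1.03 to 0.92, the most frequent distance from 181 to 184 bp, the repeat length from 186.9 to 182.4 bp, the share in arrays from 1.29 to 2.83%, the GC difference from 6.87 to 6.55 points and the first downstream maximum at start sites from the bin at 125 bp to that at 100 bp. The GC expectation moved the log2 density ratio to 0.98, the start site ratio from -1.11 to -0.76, the exon ratio from 0.53 to 0.30 and the 3′ end ratio from -0.52 to -0.014 (all log2), and it left 8 of the 16 most and least covered gene bodies, 3 of the most and 5 of the least covered. The log2 density ratio was 1.15 over 55 to 95 Mb and 1.01 without crowded 1-kb windows. The share in arrays was 0.745% with distances of 160 to 210 bp and 0.183% with at least 7 positions. The GC difference was 4.91 points against DNA 1000 bp downstream. The log2 start site ratio was -1.72 from -150 to 0 bp and -0.69 over the 1674 start sites of all transcripts, whose first maximum was in the bin at 100 bp. The log2 3′ end ratio was -1.39 within 50 bp. The cause of these changes was not tested.

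No paired analysis was possible because the list does not separate the batches. No batch was left out, for the same reason. The number of reads is unknown, so an uncalled place does not show that a nucleosome was absent. Start site and 3′ end bins of 25 bp rest on at most 39 positions, and some hold none.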
